A study of Mus musculus with 4 samples.

Results

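The genes described here make, convert or consume NAD, the coenzyme that carries hydride between dehydrogenases and is also broken down by signalling enzymes. They are the NAD-producing enzymes Nampt, Nmnat1, Nmnat2, Nmnat3 and Nadsyn1, the enzymes Nadk and Nnt, which form and reduce NADP, and the NAD-consuming enzymes Sirt1, Sirt3 and Sarm1. The genes were chosen by name, with earlier results of these data known. Every probe for mouse transcripts whose gene name on the array was one of these was taken, whatever its value. All 10 genes were found, with 13 probes, among 31093 gene names and 39429 probes. Nadk had a pair of probes, Nnt had 3, and the other 8 genes had 1 probe each.

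Mammalian cells rebuild most of their NAD from nicotinamide: NAMPT makes nicotinamide mononucleotide in the rate-limiting step, and the NMNAT enzymes turn this into NAD in the nucleus (NMNAT1), on Golgi and vesicle membranes in the cytosol (NMNAT2) or in mitochondria (NMNAT3). Sirtuins and SARM1 cleave NAD and release nicotinamide, and SARM1 is best known in the peripheral nerve as the hydrolase that drives the breakdown of injured axons. NADK phosphorylates NAD to NADP, and NNT, in the inner mitochondrial membrane, passes hydride from NADH to NADP.

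RNA came from the immortalized mouse Schwann cell line IMS32, kept for 1 h in DMEM with 5% FBS. The medium held 5 mM glucose with 1 mM pyruvate, termed [Glc 5 mM/Pyr (+)], or without pyruvate, termed [Glc 5 mM/Pyr (−)], and likewise 15 mM glucose with 1 mM pyruvate, termed [Glc 15 mM/Pyr (+)], or without it, termed [Glc 15 mM/Pyr (−)], which makes 4 conditions. Each condition was measured on 1 Cy3 array, and the 4 arrays shared 1 slide, so no difference below has a replicate check and the number of arrays limits the precision. The question was whether the mRNA levels of these genes differed when pyruvate was removed at either glucose concentration, or when glucose was raised with or without pyruvate.

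All 10 Schwann cell markers were well above background on all 4 arrays. Sox10, the transcription factor of the Schwann lineage, gave signals of 4837 to 5667, and the neuregulin receptor gene Erbb3 was detected at low signal (15.6 to 22.2). The summed level of the Schwann markers, on the log2 scale relative to the 75th percentile of each array, lay between 4.87 and 5.05. Of the markers of other cell types, 4 of 5 fibroblast, 3 of 5 neuronal, 5 of 5 macrophage and 2 of 4 endothelial markers were well above background on all arrays, while Syt1 of neurons and Cdh5 of endothelium were below background on all 4. The summed macrophage level was 0.96 in [Glc 15 mM/Pyr (−)] against 0.54 to 0.61 on the other arrays, and the summed neuronal level was 1.88 there against 2.01 to 2.44. The macrophage sum was carried by Cd68 (1817 there, 969 to 1258 elsewhere), while Aif1 and Ptprc were lowest on that array. The neuronal sum was carried by Snap25 (5470 there, 6059 to 9340 elsewhere), while Rbfox3, Tubb3 and Nefl were highest there. The fibroblast sum lay between 0.00 and 0.18 and the endothelial sum between 1.41 and 1.68. The part of these levels in the differences below was not tested. In RNA from a whole culture, fewer cells of a kind and less RNA per cell cannot be told apart. Between 28472 and 30347 of the 39429 probes were well above background per array, and no probe was saturated.

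The 60-base probes decide what was measured. The beginnings of 6 of them are printed because the results turn on them: the 3 Nnt probes gave different patterns, Sarm1 had the widest difference, and Nampt and Sirt1 were highest on the same array. The first 30 bases are given 5′ to 3′ in lower case, as the array files hold them, and no base is marked by capitals.

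Nnt, base 4091 of NM_008710: gtattaagtgcgcttgaatggaatgcaacc

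Nnt, base 3763 of AK050478: ggagggaccaacattgttctgatgtggagg

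Nnt, base 5102 of NM_008710: gagacatttttgggtttcagaactggcaga

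Sarm1: ttctaagactcacagatgaagaactccaga

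Nampt: actaacatgttcattgtacagatgtgtggg

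Sirt1: ggcatatgttttgtagaccgtttaatgact

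On the mouse build mm9, which the array files use, the Nnt probe at base 4091 lies at chr13:120124335-120124394 on the minus strand and the AK050478 probe at chr13:120142585-120142644 on the same strand, with starts 18250 bases apart. The files give no genome position for the third Nnt probe. Sarm1 was probed at chr11:78301073-78301132 (minus), Nampt at chr12:33535475-33535534 (plus) and Sirt1 at chr10:62781827-62781886 (minus). The files tie each probe to a transcript, and an mm9 annotation of exons, coding and untranslated parts was not used here. The GC content of the 13 probes ran from 21.7% to 55%, with a median of 35%.

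Levels below are log2 signals minus the 75th percentile over each array's mouse transcript probes, so 0 is a signal of 1597 to 1788 depending on the array. Differences are between 2 arrays on this log2 scale. For a bright probe the scanner software gives an error of ±0.14 on a level and ±0.20 on a difference, from a fixed term of 10% of the signal. Probes printed 10 times on an array had a median SD between spots of 0.07 to 0.08, which comes to 0.11 for a difference. Both errors are within an array and leave out the variation between cultures. As a further yardstick, each difference is set beside the 10th to 90th percentile of the probes in the same brightness group, with the probes that some array measured well above background divided into 10 groups of equal number. Only probes well above background on both arrays enter these percentiles, so a bound is set beside measured values alone. By construction 10% of the probes entered lie below such a range and 10% above it.

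In [Glc 5 mM/Pyr (−)] against [Glc 5 mM/Pyr (+)], 0 of 13 NAD gene probes differed by 1.5-fold or more, and so 0 by 2-fold. Among all 30771 probes compared, 5.41% differed by 1.5-fold and 2.69% by 2-fold. The 13 differences had a median of -0.03 and ran from -0.28 (Sarm1) to 0.27 (Nnt, AK050478), beside a median of -0.02 over all probes. The median absolute difference was 0.09 for the NAD gene probes and 0.10 for all probes. In [Glc 15 mM/Pyr (−)] against [Glc 15 mM/Pyr (+)], 12 probes could be compared. Of these 2 were lower by 1.5-fold or more, Sarm1 and the AK050478 probe of Nnt, and Sarm1 also passed 2-fold, as a bound. Over all 29608 probes 9.73% passed 1.5-fold and 4.18% passed 2-fold. The median was -0.06, with a median absolute difference of 0.09, beside 0.14 for all probes.

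**Figure D1:**
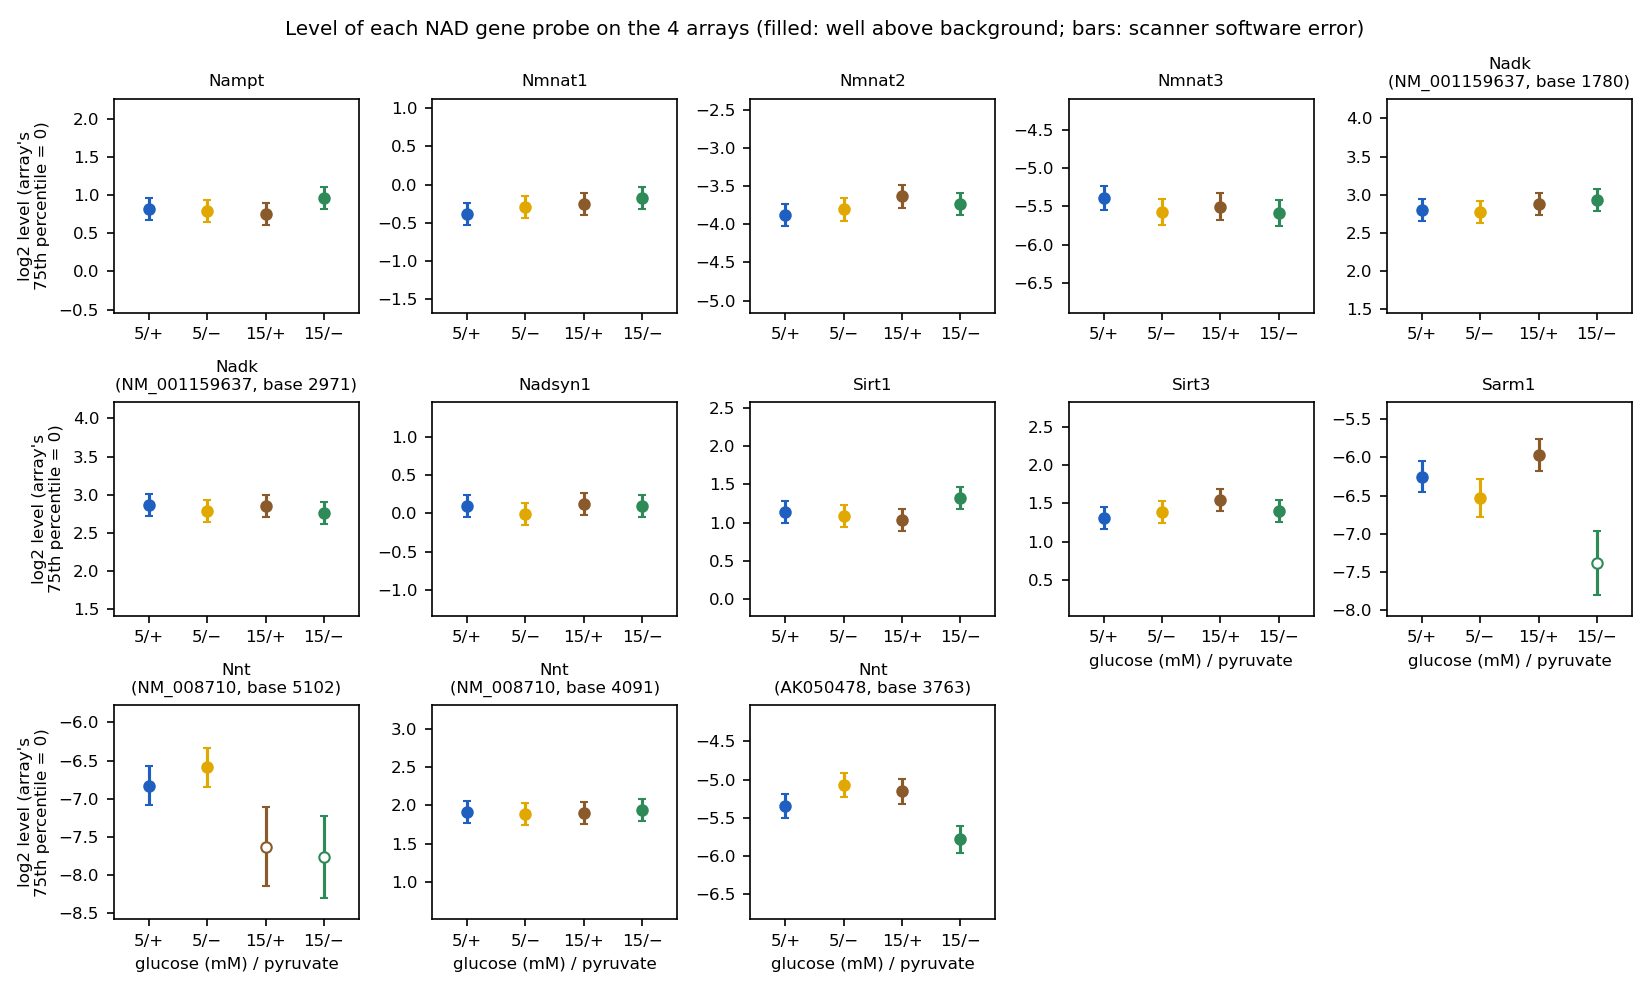
The log2 level of each of the 13 probes (y axis, 75th percentile of the array at 0; every panel spans the same number of log2 units) in the 4 conditions (x axis, glucose in mM and pyruvate present or absent), 1 array each, with the scanner software's error as bars and open circles where a probe was not well above background. The main Nnt probe stays between 1.89 and 1.93, Nampt and Sirt1 are highest in 15/−, and Sarm1 is lowest there at -7.38, not well above background.

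Nampt, the gatekeeper of nicotinamide salvage, gave signals of 3161 with pyruvate and 3003 without it at 5 mM glucose, and of 2693 with pyruvate and 3186 without it at 15 mM glucose, which are levels of 0.82, 0.79, 0.75 and 0.97. The pyruvate-free 15 mM array was thus the highest and its pyruvate-containing counterpart the lowest. Pyr (−) minus Pyr (+) was -0.03 at the lower glucose concentration and 0.21 at the higher, a 1.16-fold difference. The value at 15 mM was at the edge of the range of equally bright probes (-0.21 to 0.21) and about the size of the software error. It remained above 0 under all alternatives tried, at 0.16 to 0.24.

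The 3 NMNAT genes, which complete NAD, differed little. Nmnat1, the nuclear enzyme, measured at chr4:148842959-148843018 (minus), had levels of -0.38, -0.29, -0.26 and -0.17 on the arrays in that same order, which is kept for the levels below. Its 4 differences were all between 0.09 and 0.12, so the array without pyruvate was a little higher at each glucose concentration, and the 15 mM array a little higher with or without pyruvate. Each of these differences was smaller than the software error and within the range of equally bright probes, and all but the pyruvate difference at 15 mM went below 0 when the arrays were scaled to the spike-in probes.

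Nmnat2, the labile cytosolic enzyme that protects axons, was measured at chr1:154964383-154964442 (plus) at signals of only 121 to 129. Its levels were -3.88, -3.80, -3.63 and -3.74, highest in [Glc 15 mM/Pyr (+)]. The glucose difference with pyruvate was 0.25, above the 90th percentile of equally bright probes (0.17), and it was -0.16 after scaling to the spike-in probes. The other 3 differences lay between -0.10 and 0.08. Nmnat3, the mitochondrial form, at chr9:98311751-98311810 (plus), was dimmer still, at signals of 34 to 42.5. Its levels of -5.40, -5.57, -5.50 and -5.59 gave differences of -0.18 to -0.01, all within the range of equally dim probes.

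Nadsyn1, the glutamine-dependent synthetase that ends the de novo and nicotinic acid routes, was measured at chr7:150981777-150981836 (minus). Its levels were 0.09, -0.01, 0.13 and 0.10, so the pyruvate-free 5 mM array was the lowest. The differences ran from -0.10 (pyruvate at 5 mM glucose) to 0.10 (glucose without pyruvate), none larger than the 0.11 expected from spots of 1 probe.

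Nadk, the cytosolic NAD kinase, could be judged on a pair of probes at chr4:154963854-154963913 and chr4:154965045-154965104, both on the plus strand. Their starts are 1191 bases apart in the genome and 1191 bases apart in the transcript, so no intron separates them. The first gave levels of 2.80, 2.78, 2.88 and 2.93, and the second 2.86, 2.78, 2.85 and 2.76. At 15 mM glucose Pyr (−) minus Pyr (+) was 0.05 on the first probe and -0.08 on the second. The 2 probes thus disagreed in sign on a difference that was below the spot error on both. They share the RNA of each array and are not replicates. The first probe's glucose difference without pyruvate, 0.15, was the largest for Nadk, and the second probe gave -0.02.

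**Figure D2:**
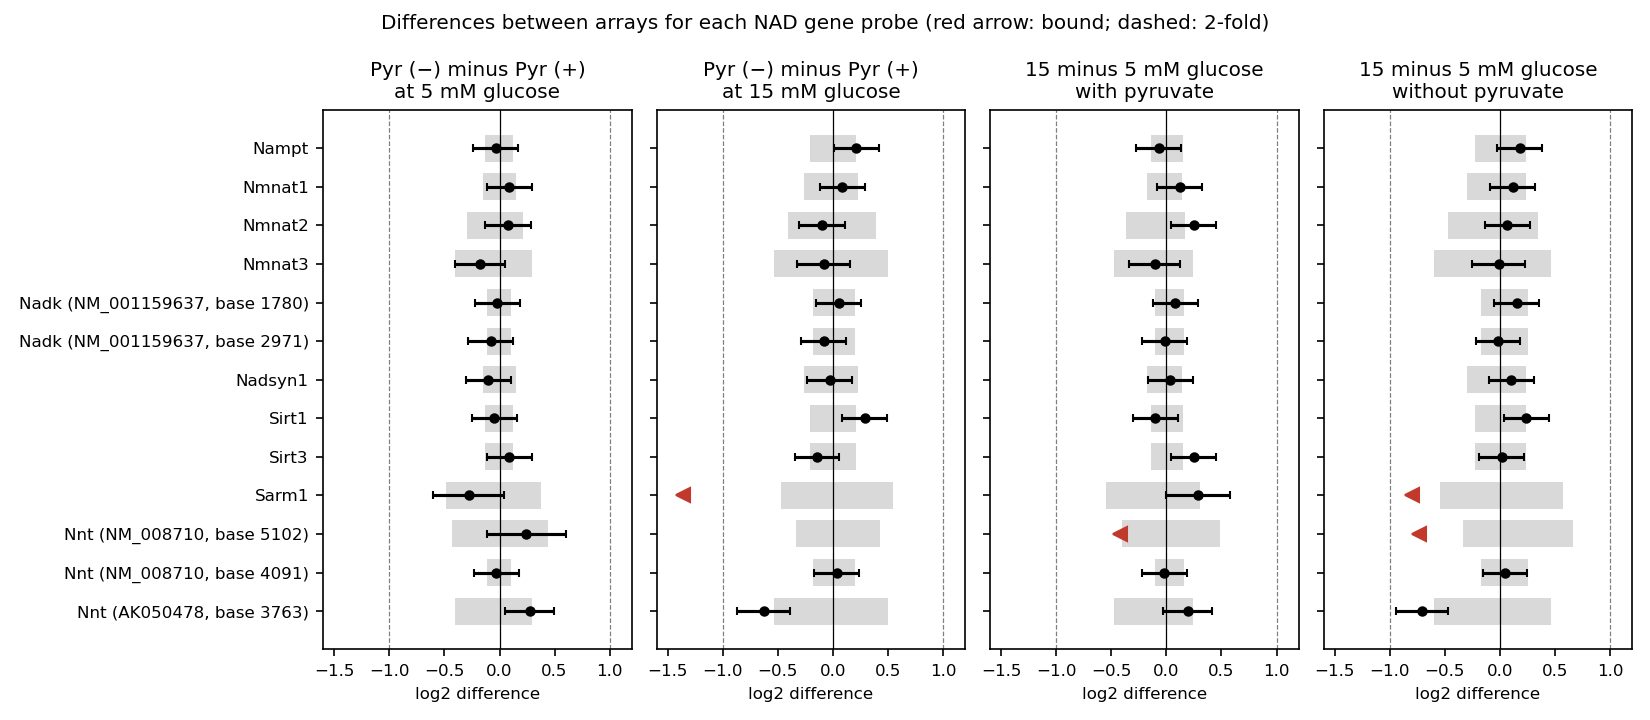
Differences between 2 arrays (x axis, log2) for each of the 13 probes (y axis) in the 4 comparisons: points with the scanner software's error, red arrows for bounds, grey bars for the 10th to 90th percentile of equally bright probes measured on both arrays (bounds left out) and dashed lines at 2-fold. Sirt1 lies right of its grey bar for pyruvate at 15 mM glucose, Sarm1 and the AK050478 probe of Nnt lie left of theirs, and the third Nnt probe has no value there because both arrays were below background.

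The 3 probes of Nnt gave different patterns. The bright probe at base 4091 had levels of 1.92, 1.89, 1.90 and 1.93, at signals of 5961 to 6762. Its 4 differences lay between -0.03 and 0.05, and it had the narrowest range of the 13 probes, 0.05. The AK050478 probe, at signals of 29.7 to 51.7, had levels of -5.34, -5.07, -5.15 and -5.78, with the pyruvate-free 15 mM array the lowest. At 5 mM glucose Pyr (−) minus Pyr (+) was 0.27 ± 0.22 (software error), within the range of equally dim probes (-0.41 to 0.29), and 0.06 after scaling to the spike-in probes. At 15 mM glucose it was -0.63 ± 0.24, outside the range of equally dim probes (-0.53 to 0.50). Its glucose difference was 0.19 with pyruvate and -0.71 without. After background correction by normexp, the differences of -0.63 and -0.71 shrank to -0.37 and -0.32.

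The Nnt probe at base 5102 was well above background on the 5 mM glucose arrays and not on the 15 mM glucose arrays. Its signals were 15.7 and 18.1 at 5 mM glucose against 8.07 and 7.50 at 15 mM glucose. As bounds, the 15 mM arrays were therefore 1.34-fold lower with pyruvate and 1.67-fold lower without, on a probe at the edge of detection. After normexp the differences were 0.00 with pyruvate and -0.20 without on the log2 scale. The bright Nnt probe gave -0.02 and 0.05 in the same comparisons, so the 3 probes did not give a common direction for this gene.

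Sirt1, the nuclear deacetylase that uses up NAD as it removes acetyl groups, had signals of 3925, 3691, 3272 and 4082 and levels of 1.13, 1.09, 1.03 and 1.32. As with Nampt, [Glc 15 mM/Pyr (−)] was the highest and [Glc 15 mM/Pyr (+)] the lowest. Pyr (−) minus Pyr (+) was -0.05 at the lower glucose concentration and 0.29 at the higher, a 1.22-fold difference. The 15 mM value was above the range of equally bright probes (-0.21 to 0.21) and larger than the software error of ±0.20. It lay between 0.23 and 0.30 under all alternatives. Without pyruvate the 15 mM array was higher by 0.24, at the edge of the range of equally bright probes (-0.22 to 0.24), and this glucose difference became -0.01 after scaling to the spike-in probes.

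Sirt3, the main mitochondrial deacetylase, measured at chr7:148049581-148049640 (minus), had levels of 1.30, 1.39, 1.55 and 1.41. The highest array was [Glc 15 mM/Pyr (+)], the one on which Nampt and Sirt1 were lowest. The glucose difference with pyruvate was 0.25, a 1.19-fold difference, above the range of equally bright probes (-0.14 to 0.15), and it was -0.15 after scaling to the spike-in probes. At 15 mM glucose Pyr (−) minus Pyr (+) was -0.14, within its range. Nampt, Sirt1 and Sirt3 fell in the same brightness group, so the same ranges apply to them.

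Sarm1, the NAD hydrolase, was a dim probe, with signals of 23.4, 18.8, 25.5 and 9.77. It was well above background on the first 3 arrays and not in [Glc 15 mM/Pyr (−)], where its level was -7.38 against -6.25, -6.53 and -5.97. As a bound, the array without pyruvate at 15 mM glucose was 2.57-fold lower than the one with pyruvate. This was the only value counted past 2-fold among the NAD genes in any of the 4 comparisons. The bound compares the brighter signal with the higher of the dim probe's own signal and the lowest signal well above background on that array. The scaled signals themselves differed 2.67-fold, with a software error of ±0.47 on the log2 scale. Bounds take no account of this error, so none is a firm minimum. Without pyruvate the 15 mM array was also lower than the 5 mM array, by a bound of 1.73-fold. With pyruvate the glucose difference was 0.28, within the range of equally dim probes (-0.55 to 0.30). After normexp the pyruvate difference at 15 mM was -0.40 and the glucose difference without pyruvate -0.13, both short of 1.5-fold.

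**Figure D3:**
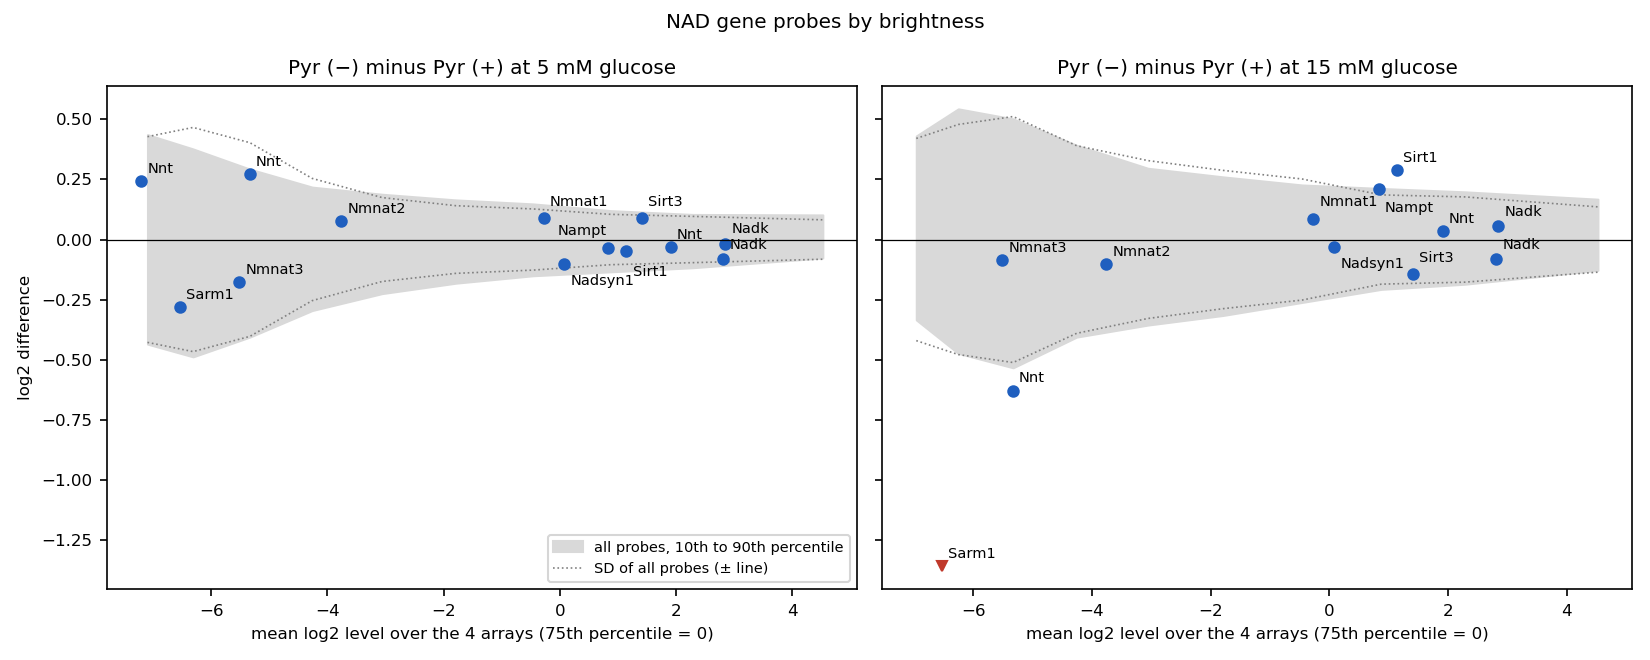
Pyr (−) minus Pyr (+) (y axis, log2) against the mean log2 level of each NAD gene probe over the 4 arrays (x axis, 75th percentile at 0), at 5 mM glucose (left) and 15 mM glucose (right); circles are measured values, the red triangle a bound, the grey area the 10th to 90th percentile of all probes measured on both arrays (bounds left out) by brightness group and dotted lines their SD. The grey area is wider for dim than for bright probes, and Sarm1 (-1.36) and the dim Nnt probe (-0.63) lie below it on the right while Sirt1 (0.29) lies above it.

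The pyruvate difference could be set side by side at the 2 glucose concentrations, which share no array. The value at 15 mM minus that at 5 mM was 0.34 for Sirt1 and 0.25 for Nampt. It was -0.23 for Sirt3, -0.18 for Nmnat2 and -0.90 for the AK050478 probe of Nnt. For the other 6 probes that were well above background on all 4 arrays the 2 pyruvate differences lay within 0.10 of each other. With 1 array per condition this dependence on glucose was not tested, and the software error of such a value was ±0.29 for the bright probes.

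For glucose, 0 of 13 probes were counted past 1.5-fold between the 2 arrays with pyruvate, where 5.31% of 30602 probes were, and 0 past 2-fold, where 2.52% were. Bounds were counted at their value. For Nnt at base 5102 the scaled signals differed 1.74-fold, so its bound does not exclude a 1.5-fold difference. The 13 differences had a median of 0.03, with the bound of -0.42 for Nnt at base 5102 as the lowest and 0.28 for Sarm1 as the highest. Between the 2 arrays without pyruvate, 3 of 13 probes were lower by 1.5-fold or more, against 10.4% of 30228 probes in either direction. These were Sarm1 and the 2 dim Nnt probes, and 2 of the 3 values are bounds. After normexp none of the 3 passed 1.5-fold, at -0.13 for Sarm1 and -0.20 and -0.32 for Nnt. None of the 13 values reached 2-fold, where 4.39% of all probes did. The scaled signals differed 1.8-fold for Sarm1 and 2.26-fold for Nnt at base 5102, so their bounds do not exclude 2-fold. All the probes past 1.5-fold in any comparison were dim.

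An additive fit of pyruvate and glucose over the 4 arrays, made with limma with 1 residual degree of freedom, took any dependence of one factor on the other as error. It called 0 of 31285 probes for pyruvate (0%) and 0 for glucose (0%) at an adjusted p under 0.05. At an unadjusted p under 0.05 there were 1079 probes for pyruvate, with 0 of 13 NAD gene probes, and 1493 for glucose, with 1 of 13. That 1 was the Nnt probe at base 5102, which was not well above background on either 15 mM array, so its fitted difference is no measured size. Its adjusted p in limma was 0.772. The lowest adjusted p among the NAD gene probes in limma was 0.984 for pyruvate and 0.772 for glucose, and over all probes 0.735 and 0.706.

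The wider set of NAD metabolism held 40 other genes: de novo synthesis from tryptophan, nicotinic acid and riboside salvage, transport, NADP formation and repair, Nudix hydrolases, other sirtuins and CD38-type hydrolases, nicotinamide clearance, and protein partners. All 40 were on the array, 2 of them under an older name (Naxd as Carkd, Naxe as Apoa1bp). Ido1 and Kynu of the de novo route, and Acmsd, which was only grouped with that route here, were below background in every comparison, which left 37 genes. No probe of these genes that was well above background on all 4 arrays (43 probes) differed by 1.5-fold in any comparison. The share of all such probes past 1.5-fold was not counted, so this 0 has no background share beside it. Of 27591 such probes, 233 and 541 passed 2-fold for pyruvate at 5 and 15 mM glucose. For glucose with and without pyruvate 217 and 597 did.

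At 5 mM glucose, 1 of the 37 genes was higher by 2-fold in [Glc 5 mM/Pyr (−)] and 1 was lower, both as bounds on very dim probes. Of all 30771 probes compared there, 2.69% passed 2-fold in either direction. Tdo2, the liver-type tryptophan dioxygenase, had a bound of 3.57-fold higher, with signals of 2.44, 29.9, 15.9 and 20.2 on the 4 arrays. Ido2, another tryptophan dioxygenase, had a bound of 4.83-fold lower, with signals of 49, 6.38, 37 and 41. In each case the value rests on 1 array below background, [Glc 5 mM/Pyr (+)] for Tdo2 and [Glc 5 mM/Pyr (−)] for Ido2. The same arrays gave the only glucose values counted past 2-fold among the 37 genes, bounds of 2.08-fold higher for Tdo2 with pyruvate and 4.42-fold higher for Ido2 without. Over all probes compared, 2.52% passed 2-fold for glucose with pyruvate and 4.39% without.

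Of the 35 genes measured on both 5 mM arrays, 11 were above 0 and 24 below, with a median of -0.03. At 15 mM glucose 32 of 37 were above 0 in Pyr (−) minus Pyr (+), with a median of 0.09 and none past 1.5-fold. Of all 29608 probes compared there, 9.73% passed 1.5-fold. Over all probes measured in each comparison, 44.5% were above 0 at 5 mM and 55.9% at 15 mM. The shares of this set moved with the processing: scaled to the spike-in probes, 0 of 35 were above 0 at 5 mM and 25 of 37 at 15 mM, and after normexp 19 of 35 and 23 of 37. The shares of the probes well above background on every array moved too, to 6.94% and 44.1% with spike-in scaling and to 56% and 42.5% with normexp. Both medians were below the spot error of 0.11, and the signs are given as counts without a test.

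By role, all 7 other consumers (Cd38, Bst1, Sirt2, Sirt4, Sirt5, Sirt6 and Sirt7) were above 0 at 15 mM glucose, between 0.08 (Sirt7) and 0.27 (Sirt6). The 6 de novo genes were above 0 too, at 0.06 to 0.31, as were 5 of 6 salvage genes. The highest de novo value, for Tdo2, rests on signals of 15.9 and 20.2. The consumers among the NAD genes chosen by name differed in sign here: Sirt1 was at 0.29, Sirt3 at -0.14 and the dim Sarm1 probe at a bound of -1.36. Over all probes measured in this comparison 55.9% were above 0. The counts by role are given for the scaling as reported only. For the whole set, 25 of 37 genes were above 0 with spike-in scaling and 23 of 37 after normexp. With the brightest probe of each gene in place of the mean, 35 of 37 were. Naprt, which feeds nicotinic acid into NAD, was the highest of the set at 0.34. The 3 Nudix hydrolases were below 0 as means of their probes, at -0.09 to -0.01. The probes disagreed in sign for Nudt7 (-0.32 and 0.15) and Nudt13 (-0.18 and 0.09), so these means give no common direction. The largest absolute difference at 15 mM was -0.40 for Mycbp2, the ubiquitin ligase that limits NMNAT2, with levels of -0.91, -1.12, -1.01 and -1.41. Its signal was thus lowest in [Glc 15 mM/Pyr (−)], and its pyruvate difference at 5 mM glucose was -0.21.

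**Figure D4:**
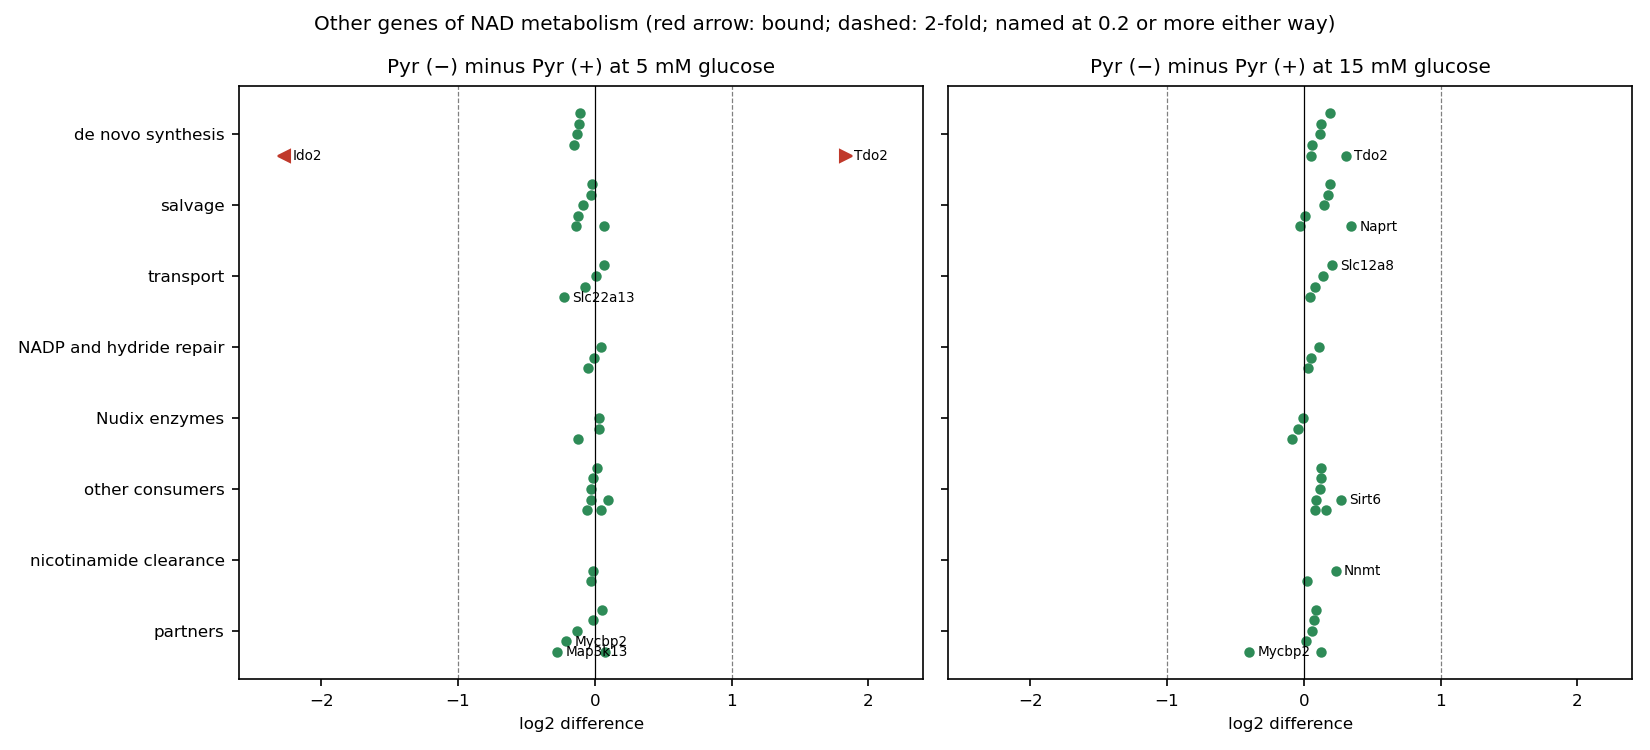
Pyr (−) minus Pyr (+) (x axis, log2) for the other genes of NAD metabolism, 1 point per gene, grouped by role (y axis; the vertical offset within a group only separates points), at 5 mM glucose (left) and 15 mM glucose (right). The bounds for Ido2 (-2.27) and Tdo2 (1.84) stand apart on the left, and 32 of 37 genes lie right of 0 on the right, none of them past 1.5-fold.

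With pyruvate, raising glucose gave 13 genes of the set above 0 and 23 below, with a median of -0.05 and a lowest value of -0.45 (Map3k13, the kinase upstream of axonal degeneration signalling), where 45.8% of all probes measured were above 0. After normexp the split was 20 above and 16 below, with a median of 0.02. Without pyruvate 27 were above 0 and 9 below, with a median of 0.08, beside 55.8% of all probes measured. All 6 salvage genes lay between 0.08 and 0.27, the highest being Nmrk2, a nicotinamide riboside kinase. The Nmrk2 value rests on signals of only 81.1 and 91.4, and that of Nt5e, 0.25, on 32.1 and 35.9. These genes were not set beside the range of equally dim probes. These 2 comparisons each share an array with both pyruvate comparisons, so the 4 sets of values are not independent. Scaled to the spike-in probes, 0 of 36 genes were above 0 with pyruvate and 2 of 36 without, beside 1.7% and 13.6% of the probes well above background on every array.

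**Figure D5:**
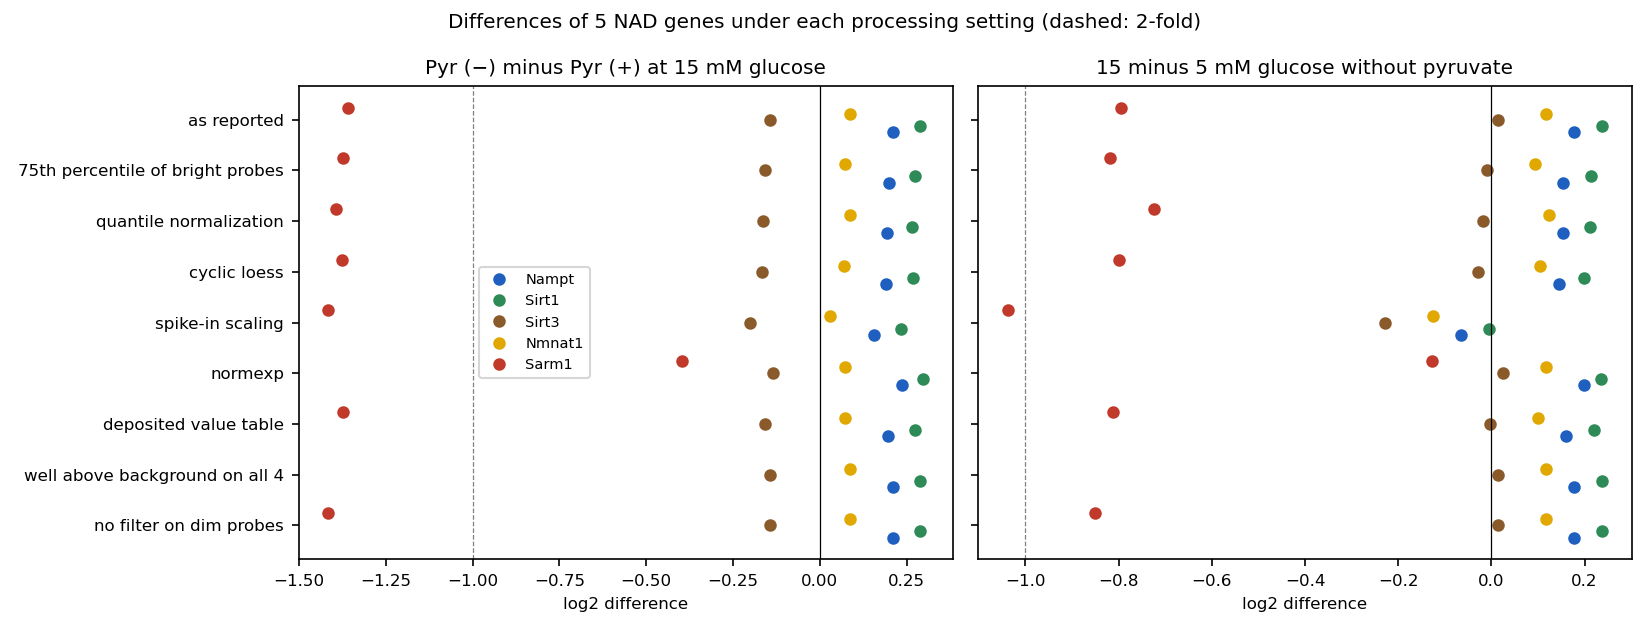
Differences (x axis, log2) of 5 NAD genes under each processing setting (y axis), for pyruvate at 15 mM glucose (left) and glucose without pyruvate (right), with dashed lines at 2-fold. On the left Nampt, Sirt1 and Nmnat1 stay right of 0 and Sirt3 and Sarm1 left of it under each setting, with Sarm1 at -0.40 after normexp, while on the right spike-in scaling takes Nampt, Nmnat1 and Sirt1 below 0.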

How the data were processed

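Gene expression was measured in IMS32 cells on 4 one-colour arrays, 1 per condition, grouped by the glucose and pyruvate named in the labels. The authors deposited scanner output made with Agilent Feature Extraction 11.5.1.1 (per the submitters' processing notes), which gives each spot's intensity after background subtraction and detrending, not scaled between arrays. A deposited value table holds the same intensity as a ratio to 1 constant per array; all 44397 features matched within 1e-05. The study names GeneSpring GX without settings.

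Control and outlier spots were left out, spots of a probe were averaged on the log2 scale, and the 75th percentile of probes for mouse transcripts was subtracted. A probe was compared where it was well above background on at least 1 of the 2 arrays; with 1 only, the difference is a bound. The threshold was 2-fold. Of the array names, 40 other NAD genes were matched by symbol or RefSeq synonym, and the measured probes of a gene were averaged. The brightness groups divide the probes that some array measured well above background into 10 by mean level, and bounds do not enter their percentiles. limma 3.58.1 under R 4.3.3 fitted pyruvate and glucose together with Benjamini-Hochberg adjustment; other steps used Python 3.11.15, numpy 2.4.6, pandas 2.3.3 and matplotlib 3.10.9. The fold count and the fit were tested on simulated data. The data simulated for the fit held pyruvate changes without any dependence on glucose, so they cannot show how the fit behaves under such dependence.

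The NAD genes and the lists were chosen with earlier results of these data known. The rule for named genes takes the 10 NAD genes, genes of the wider set past 1.5-fold on a probe well above background on all 4 arrays, the gene of that set with the largest difference in each comparison, and 3 genes closest in profile to the NAD gene probe of widest range. Ido1, Kynu, Acmsd, Naxd, Naxe, Naprt, Map3k13, Nmrk2, Nt5e, Nudt7, Nudt13 and the other consumers are named outside it, after their values were seen.

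Alternatives replaced the scaling (by the 75th percentile of probes well above background on every array, quantile normalization, cyclic loess or the median of 8 out of 10 spike-in probes), the background correction (normexp, offset 50), the source (the deposited ratio), the filter on dim probes, the averaging of probes (brightest only), the threshold (1.5-fold) and limma's variance (intensity trend).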

Additional observations from a re-analysis of the deposited data

Results flagged for a closer look

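The AK050478 probe of Nnt moved in opposite directions with pyruvate removal at the 2 glucose concentrations. Pyr (−) minus Pyr (+) was 0.27 on the log2 scale at 5 mM glucose and -0.63 at 15 mM glucose, each larger than the scanner software's error. The value at 5 mM lay within the 10th to 90th percentile of equally dim probes (-0.41 to 0.29) and was 0.06 after scaling to the spike-in probes. The difference between the 2 values was not tested, since each condition has 1 array. The probe was dim, and the bright Nnt probe gave -0.03 and 0.03 in the same comparisons.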

How the results depend on the processing

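Over 11 alternatives, 669 values were recalculated. Of these 568 stayed within 1.5 times the count reported or within the spot error of 0.11, 101 moved further, and 45 changed sign, from values of at most 0.28. Scaling to the spike-in probes moved the median of all probes to -0.23 (pyruvate at 5 mM glucose), -0.03 (pyruvate at 15 mM), -0.42 (glucose with pyruvate) and -0.21 (glucose without). The medians of the 13 NAD gene probes then were -0.24 for pyruvate at 5 mM, -0.37 for glucose with pyruvate and -0.20 without. Those of the other NAD genes measured (35, 36 and 36) were -0.24, -0.46 and -0.16. Relative to the median of all probes, the pyruvate difference at 15 mM was between 0.26 and 0.33 for Sirt1 and between 0.18 and 0.27 for Nampt. The glucose difference with pyruvate was between 0.19 and 0.26 for Sirt3 on that footing. Scaling by 1 constant per array cancels in such a value, so these ranges come from quantile normalization, cyclic loess and normexp only. The count of 1 NAD gene probe past 2-fold for pyruvate at 15 mM became 0 with normexp and with probes well above background on all 4 arrays, and 2 at 1.5-fold. The count of 0 for glucose without pyruvate became 1 with spike-in scaling, 1 without a filter and 3 at 1.5-fold. In the wider set, the 2 genes past 2-fold for pyruvate at 5 mM became 0 with normexp and with probes well above background on all arrays, as did the 1 in each glucose comparison. The count for glucose with pyruvate was also 0 with cyclic loess and spike-in scaling and 2 without a filter, and for glucose without pyruvate it was 3 without a filter. Over all probes, the counts past 2-fold of 828, 1237, 770 and 1326 in the 4 comparisons became 45, 133, 43 and 157 with normexp, 233, 541, 217 and 597 with probes well above background on all arrays, and 1655, 2541, 1625 and 2758 without a filter, and spike-in scaling gave 1234 for glucose with pyruvate. With spike-in scaling the limma fit called 11 probes for pyruvate and 24 for glucose, none of them for an NAD gene. The cause of these shifts was not tested. With 1 array per condition no array could be left out. No paired analysis was possible because each group has 1 array. Signal over background limits Sarm1, Nmnat3 and the 2 dim Nnt probes.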

Other observations

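Among probes well above background on all 4 arrays, the NAD gene probe with the widest range was the AK050478 probe of Nnt. The 3 genes whose levels, centred on their mean over the 4 arrays, lay closest to it were Trpm1, a melanocyte and retinal channel, Nol4, a nucleolar protein, and Ermn, a cytoskeletal protein of oligodendrocytes. Their largest absolute difference from it on any array was 0.03 for Trpm1, 0.04 for Nol4 and 0.04 for Ermn on the log2 scale, over 4 arrays.

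Of the 35 other NAD genes measured in both pyruvate comparisons, 21 were below 0 at 5 mM glucose and above 0 at 15 mM, 9 were above 0 in both, 3 were below 0 in both, and 2 were above 0 at 5 mM and below at 15 mM. Over the 27591 probes well above background on all 4 arrays, the shares were 30.5%, 25.4%, 25.2% and 18.9%. These signs were not tested. Scaled to the spike-in probes, all 35 genes were below 0 at 5 mM glucose, where 6.94% of the 27591 probes were above 0.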
